A study of Mus musculus with 183 samples.

Results

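Replication-dependent histone H4 mRNAs were followed through a transcription block in mouse embryonic stem cells (mESCs) before and after inducible deletion in Skiv2l, which encodes the helicase of the Ski complex. The 10 genes described are Hist1h4a, Hist1h4b, Hist1h4c, Hist1h4d, Hist1h4f, Hist1h4h, Hist1h4i, Hist1h4j, Hist1h4n and Hist2h4. They were chosen by name, with earlier results of these data known. They are 10 of the 53380 genes counted and 10 of the 13 annotated mouse H4 genes. Clone 5F carried Rosa26Cre-ERT2/- and Skiv2l fl/fl. Clone 7E carried Rosa26Cre-ERT2/BirA, Skiv2l 3xFLAG-Avi, Aven-/- and, per the study's methods, Skiv2l fl/fl. Both are male mESC lines kept in serum with LIF, and each genotype is 1 clone, so clone and genotype cannot be told apart. Day 0 cells had no 4-hydroxytamoxifen (4OHT), and day 4 cells had 0.1 µM 4OHT for 4 days, which lets the Cre fusion remove Skiv2l exons 11 to 17. In both, actinomycin D, which blocks transcription, was given for 120, 240 or 360 min, or DMSO alone for the mock. Per the study's methods the mock had DMSO for 360 min, and it stands for 0 min in all percentages and fits. This made 16 groups of clone, day and time with 3 libraries each, except clone 5F at day 0 and 120 min, which has 2 (replicates 1 and 3).

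Histone H4 is the core histone that pairs with H3 in the nucleosome. Its replication-dependent mRNAs are made in S phase and end in a conserved stem-loop, which binds SLBP, in place of a poly(A) tail. They are short-lived, and when DNA synthesis stops they are degraded from both ends: 3′ to 5′ by ERI1 and the exosome after uridine addition, and 5′ to 3′ by XRN1 after decapping. SKIV2L belongs to the Ski complex, which feeds RNA into the cytoplasmic exosome. The libraries were depleted of rRNA and not selected for poly(A), so mRNAs without a tail were sequenced.

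The stem-loops of the 10 mRNAs are shown because this element replaces the poly(A) tail and is the part of the 3′ end that all members share. Each sequence is read 5′ to 3′ on the gene's strand from RefSeq's GRCm38 genome, with the 16-nt stem-loop in capitals and 5 nt on each side in lower case.
Hist1h4a: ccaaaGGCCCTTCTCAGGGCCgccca
Hist1h4b: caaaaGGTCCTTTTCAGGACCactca
Hist1h4j: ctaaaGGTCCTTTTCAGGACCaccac
Hist1h4c: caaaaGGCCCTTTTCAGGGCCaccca
Hist1h4d: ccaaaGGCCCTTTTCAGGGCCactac
Hist1h4f: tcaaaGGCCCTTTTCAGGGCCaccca
Hist1h4h: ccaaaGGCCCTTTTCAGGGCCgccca
Hist1h4n: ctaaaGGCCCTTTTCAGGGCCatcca
Hist1h4i: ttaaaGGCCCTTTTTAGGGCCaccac
Hist2h4: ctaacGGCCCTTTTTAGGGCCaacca

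The first form of the capitals is shared by 5 members (Hist1h4c, Hist1h4d, Hist1h4f, Hist1h4h and Hist1h4n). Hist1h4b and Hist1h4j share another form, Hist1h4i and Hist2h4 a further one, and Hist1h4a stands by itself. The stem-loop began 25 to 38 nt after the stop codon. Of the 21762 protein-coding genes, 66 (0.303%) hold a match to the histone stem-loop within 100 nt after the stop on the coding strand, and 62 of these 66 have replication-dependent histone symbols. In GRCm38 with GENCODE M21 models, each member is a single exon with a coding sequence of 312 nt, and all 13 annotated H4 genes encode 1 identical protein. Coding sequences of the members were 87.8% to 97.4% identical over the 45 pairs (median 94.2%). The stem-loop of Hist1h4f lies at chr13:23551291-23551306 on the minus strand, in the exon at chr13:23551258-23551648. That of Hist1h4a lies at chr13:23760800-23760815 on the minus strand, in the exon at chr13:23760692-23761230. That of Hist1h4d lies at chr13:23581950-23581965 on the plus strand, in the exon at chr13:23581598-23582735. That of Hist2h4 lies at chr3:96262939-96262954 on the minus strand, in the exon at chr3:96261682-96263311. The other members lie between chr13:21735064 and chr13:23757409, each in 1 exon.

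Because the authors kept only uniquely mapping reads, similarity limits what each gene can collect. Of the 50-nt windows of each model, the share found nowhere else in the genome was 99.0% for Hist2h4, 89.8% for Hist1h4d and 80.4% for Hist1h4c. It was 45.4% for Hist1h4b and only 7.09% for Hist1h4n, which has 27 such windows and whose coding sequence is identical to that of Hist1h4m. Models also differed in how far they run past the stem-loop, from 28 nt in Hist1h4b to 770 nt in Hist1h4d and 1257 nt in Hist2h4. Counts of these long models include any reads from that stretch. Only Hist1h4b overlaps another gene, the antisense 4930558J22Rik, over 223 nt, and counting did not use strand.

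Library totals ran from 24440935 to 34114250 gene counts over the 47 libraries, and spike-in RNA took 0.275% to 1.79% of counts. Skiv2l, the targeted gene, had 4125, 5029 and 4117 counts in the mock libraries of clone 5F at day 0 and 4431, 3619 and 4056 in those labelled day 4. These groups overlapped (log2 change −0.01 ± 0.05 SE, edgeR adjusted p = 0.922). The deleted exons hold 907 of the 3951 nt of the Skiv2l transcript (23% of its length). With even coverage, losing them would lower the gene count by more than its SE, and in clone 5F the count did not show this. Whether the exons were lost in that clone was not tested. The libraries of that clone are therefore called "labelled day 4". In clone 7E, Skiv2l had 975, 1062 and 885 counts at day 0 and 399, 374 and 385 at day 4, a log2 change of −1.32 ± 0.07 SE (edgeR adjusted p = 3.67e-13). Before 4OHT, Skiv2l was already lower in clone 7E than in clone 5F (log2 difference −2.10, edgeR adjusted p = 3.84e-18). Aven had 977 to 1230 counts in clone 5F and 57 to 88 in clone 7E at day 0. All 10 mESC markers (Pou5f1, Nanog and others) were above 1 CPM (counts scaled to library size) in every mock group. Their summed level went from 3926 to 3950 CPM at day 0 to 3658 to 3744 CPM labelled day 4 in clone 5F. In clone 7E it went from 3792 to 3907 CPM to 3182 to 3269 CPM. There 8 of the 10 were lower at day 4, where 19.4% of all genes were. Markers called higher were 3 of 5 tested of fibroblasts, 2 of 6 of primitive endoderm and 2 of 6 of primed or differentiated cells. Of the last 2 were lower, and 20.5% of all genes were higher. These calls depend on the scaling, as described below for the mock levels. Primitive endoderm markers summed to 110 to 116 CPM in clone 5F at day 0 and 13.4 to 15.1 CPM in clone 7E at day 0. Summed markers of primed or differentiated cells were at most 73.0 CPM, and those of fibroblasts at most 12.3 CPM, with Postn at or near 0. The part of these differences in the results below was not tested.

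Before the transcription block, H4 mRNA was abundant in every mock library. The summed normalized count (scaled by the study's method, described under the processing) was 17510, 20070 and 16990 in clone 5F at day 0. It was 23640, 29810 and 25990 in clone 7E at day 0. Levels are given per 1000 unique windows, which corrects each gene for how much of its model is found nowhere else in the genome. Windows past the stem-loop count too, in a stretch of 1257 nt in Hist2h4, 770 nt in Hist1h4d and 46 nt in Hist1h4h. Where few reads come from that stretch, a long model reads too low, so the ranks depend on the models. Levels without that stretch were not computed. The overlap of Hist1h4b with 4930558J22Rik is not corrected for, so the level and rank of Hist1h4b are less certain. By this measure Hist1h4h had the highest mean of the 10 in both clones and at both days. Its libraries overlapped those of Hist1h4f in every group but clone 5F at day 0. At day 0 in clone 5F its level was 10960 ± 917 (SD, n = 3), followed by Hist1h4f at 8487 ± 752 and Hist1h4b at 7906 ± 708. Hist1h4f and Hist1h4b did not differ beyond their spread. Hist1h4a followed at 6251 ± 633, and Hist1h4d at 5844 ± 515 lay within that spread. Lower levels were those of Hist1h4c (2830 ± 256), Hist1h4i (2280 ± 109), Hist1h4j (1392 ± 244), Hist2h4 (994 ± 143) and Hist1h4n (638 ± 227). The last rests on 10 to 26 counts a library.

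Before 4OHT, little H4 mRNA was left after 120 min of actinomycin D in either clone. RNA left is given as the percentage of the mean normalized count in the mock libraries of the same clone and day. In clone 5F at day 0, 2.41% and 3.24% of the summed H4 mRNA was left in the 2 libraries. In clone 7E at day 0, 4.55%, 4.91% and 4.22% was left. At 360 min the mean was 0.690% in clone 5F and 0.857% in clone 7E. All 10 members fell by 120 min in both clones at day 0 (edgeR adjusted p under 0.05), where 75.1% and 77.9% of the 18623 genes tested fell. The difference lay in size, with a median log2 fall of −6.22 over the members and −0.80 over all genes in clone 5F (−5.94 over the members with Hist1h4n at its bound), and −5.14 and −0.80 in clone 7E. Without spike-ins (TMM) the all-gene calls split to 4444 higher and 4820 lower in clone 5F, while the members' median was −5.40.

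In the libraries labelled day 4, several times more H4 mRNA was left at the same time. The sum stood at 20.1%, 16.1% and 21.2% in clone 5F and at 22.6%, 18.0% and 19.4% in clone 7E after 120 min. These values do not overlap those of day 0 in either clone. At 240 min, 9.21%, 11.3% and 10.5% was left in clone 5F labelled day 4, against 1.47%, 1.45% and 1.15% at day 0. At 360 min the means were 5.28% in clone 5F and 6.87% in clone 7E. For single members, every library labelled day 4 had a higher percentage left at 120 min than every day 0 library for 10 of 10 members in each clone. Among all genes tested the same held for 14.4% in clone 5F and 12.9% in clone 7E. It held at 240 min for 9 members in clone 5F (9.49% of all genes) and 10 in clone 7E (14.1%), and at 360 min for 10 in each (10.6% and 15.5%). Against their own mock, all 10 members still fell by 120 min in clone 5F labelled day 4 (79% of all genes) and 9 in clone 7E at day 4 (81%), where Hist1h4n did not pass. The Hist1h4n call in clone 5F was lost without replicate 2 or 3 (edgeR adjusted p = 0.326 and 0.0779).

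**Figure D1:**
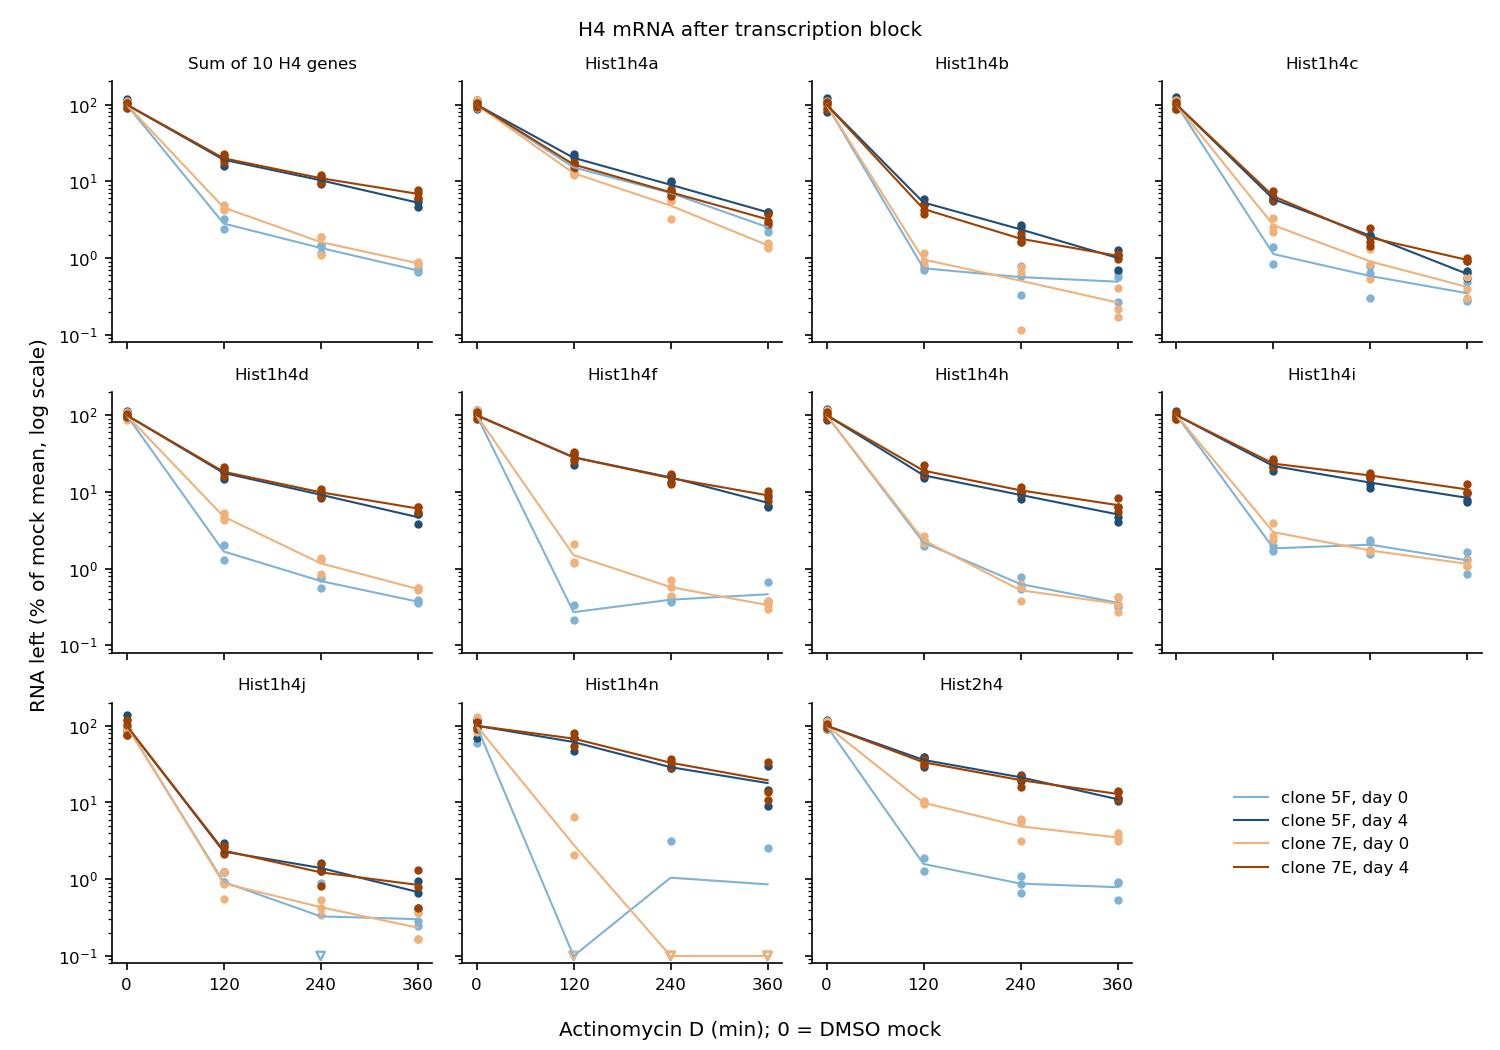
RNA left as a percentage of the mock mean of the same clone and day (log scale) against minutes of actinomycin D, for the sum of the 10 H4 genes and for each member. Points are libraries, lines join group means, and open triangles at 0.1 mark libraries below that level. The day 4 lines (dark) of the sum stay above the day 0 lines (pale), at 19.1% against 2.82% in clone 5F and 20.0% against 4.56% in clone 7E at 120 min.

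The change in the fall to 120 min was tested for each gene as the difference of differences (120 min against mock, day 4 against day 0), with all 47 libraries in the fit. In clone 5F 8 of the 10 members had more RNA left at day 4, where 0.333% of all genes tested did. In clone 7E 8 of 10 did as well, where 1.02% of all genes did. The median log2 difference over the 10 was 3.15 in clone 5F (3.09 with Hist1h4n at its lower bound) and 2.06 in clone 7E, while the medians over all genes were −0.004 and −0.02. With each library scaled to its own spike-ins the all-gene medians moved to −0.19 and 0.19, the shares of calls that were higher went from 79.5% to 93.0% in clone 5F and from 58.3% to 98.9% in clone 7E, and 8 members still passed in each. No member had less RNA left in either clone, where 0.0859% and 0.73% of all genes did. The same 2 members, Hist1h4a and Hist1h4j, did not pass in either clone.

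**Figure D2:**
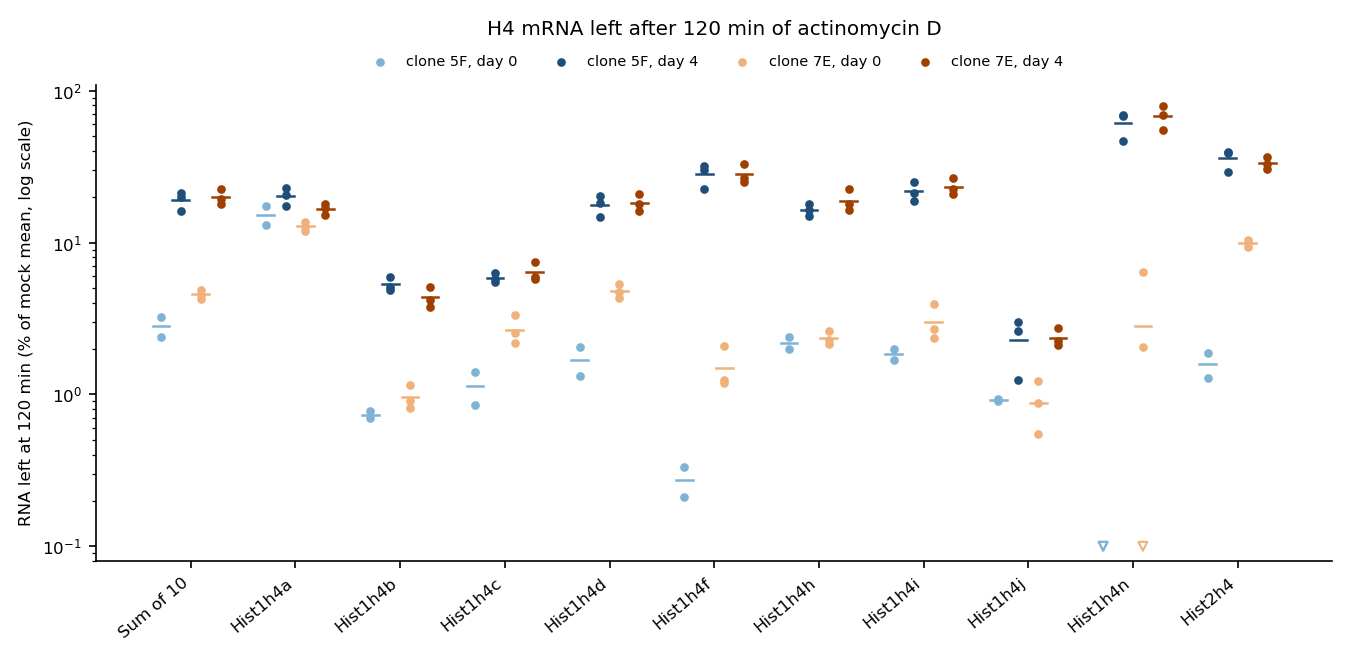
RNA left after 120 min of actinomycin D as a percentage of the mock mean (log scale), for the sum and each of the 10 members. Points are libraries (2 for clone 5F at day 0, otherwise 3), bars are means, and open triangles mark libraries with no count. Hist1h4a shows the smallest gap between the days, and Hist1h4f and Hist1h4n show wide ones.

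Hist1h4f changed most among the members with counts in every library. After 120 min 0.212% and 0.331% was left in clone 5F at day 0, which rests on 5 and 8 counts. In the libraries labelled day 4, 32.1%, 22.6% and 30.2% was left. In clone 7E, 1.195%, 2.07% and 1.24% was left at day 0 and 32.8%, 25.0% and 26.7% at day 4. The groups lay far apart in both clones. The log2 difference was 6.68 ± 0.37 SE in clone 5F (edgeR adjusted p = 5.01e-17) and 4.22 ± 0.24 SE in clone 7E (edgeR adjusted p = 1.49e-16).

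Hist2h4, the member outside the large cluster on chromosome 13, had overlapping values in both clones at day 4 and separate ones at day 0. At 120 min 38.8%, 29.3% and 39.6% was left in clone 5F labelled day 4, and 36.6%, 30.6% and 33.0% in clone 7E at day 4. At day 0 it was 1.29% and 1.87% in clone 5F, and 10.4%, 9.95% and 9.42% in clone 7E. The log2 difference between the days was 4.50 ± 0.29 SE in clone 5F (edgeR adjusted p = 1.39e-14) and 1.75 ± 0.21 SE in clone 7E (edgeR adjusted p = 2.72e-07).

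Hist1h4d, the member with the most counts, showed the same arrangement. Clone 5F had 1.31% and 2.04% left at day 0, and 18.1%, 14.7% and 20.2% when labelled day 4. Clone 7E had 4.71%, 5.30% and 4.29% left at day 0, and 20.9%, 16.1% and 18.0% at day 4. Log2 differences were 3.39 ± 0.23 SE and 1.94 ± 0.19 SE (edgeR adjusted p = 3.58e-14 and 1.94e-09).

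Hist1h4h and Hist1h4i, which differ in their stem-loop, both had more RNA left at day 4, with no overlap between the days in either clone. For Hist1h4h 1.99% and 2.39% was left in clone 5F at day 0, against 16.3%, 15.1% and 18.0% when labelled day 4. In clone 7E, 2.63%, 2.28% and 2.13% of it was left at day 0 and 22.5%, 16.4% and 17.9% at day 4. Its log2 differences were 2.91 ± 0.26 SE and 3.01 ± 0.22 SE. For Hist1h4i 1.69% and 1.99% was left in clone 5F at day 0 and 21.4%, 18.7% and 25.1% when labelled day 4. Clone 7E had 3.94%, 2.34% and 2.68% of it left at day 0 and 26.7%, 22.5% and 20.9% at day 4. Its log2 differences were 3.56 ± 0.27 SE and 2.97 ± 0.21 SE, and the highest edgeR adjusted p of these 4 values was 1.29e-10.

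Hist1h4b and Hist1h4c kept little RNA even at day 4, although both changed. Hist1h4b had 0.774% and 0.699% left in clone 5F at day 0 and 5.13%, 4.85% and 5.94% when labelled day 4. In clone 7E, it had 0.809%, 1.16% and 0.910% left at day 0 and 5.11%, 3.79% and 4.19% at day 4. Its log2 differences were 2.84 ± 0.40 SE and 2.18 ± 0.30 SE (edgeR adjusted p = 6.83e-06 and 5.83e-06). Hist1h4c had 0.848% and 1.41% left in clone 5F at day 0 and 6.27%, 5.54% and 5.75% when labelled day 4. In clone 7E, it had 2.54%, 3.31% and 2.18% left at day 0 and 7.40%, 5.96% and 5.80% at day 4. Its log2 differences were 2.37 ± 0.34 SE and 1.25 ± 0.24 SE (edgeR adjusted p = 8.95e-06 and 0.00183). The Hist1h4c call was lost without replicate 1 in both clones (edgeR adjusted p = 0.0545 and 0.0809) and in clone 7E also without replicate 2 and with limma. Its highest adjusted p over the alternatives was 0.0545 in clone 5F and 0.0809 in clone 7E.

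Hist1h4n gave few counts, so its percentages are coarse. In clone 5F at day 0 it had 20, 26 and 10 counts in the mock libraries and 0 in both libraries at 120 min. A floor of 3 counts over that group allows up to 6.40% of the mock level, which makes the fall at least 15.6-fold. Labelled day 4, the same clone had 68.3%, 46.7% and 69.3% left (43, 32 and 48 counts), at least 9.60-fold more. In clone 7E, 1, 0 and 3 counts at day 0 stood against 40, 58 and 48 at day 4, when 55.1%, 79.3% and 69.7% was left. The log2 difference in clone 7E was 4.52 ± 0.71 SE (edgeR adjusted p = 8.74e-05). In clone 5F the call (edgeR adjusted p = 0.00824) was lost without replicate 1 (adjusted p = 0.776) and without replicate 2 (adjusted p = 0.118), and its p ranged from 4.18e-06 to 0.776 over the alternatives.

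Hist1h4a and Hist1h4j are the members that did not pass. Hist1h4a was the slowest to fall at day 0, with 13.1% and 17.3% left at 120 min in clone 5F and 12.0%, 13.7% and 12.7% in clone 7E. It kept 20.5%, 17.4% and 22.9% in clone 5F labelled day 4 and 17.9%, 15.1% and 16.8% in clone 7E at day 4. All day 4 values were above all day 0 values, but log2 differences of 0.41 ± 0.20 SE and 0.38 ± 0.19 SE did not pass (edgeR adjusted p = 0.792 and 0.404). Hist1h4j had 0.930% and 0.910% left in clone 5F at day 0 and 3.00%, 1.24% and 2.63% when labelled day 4. In clone 7E it had 0.545%, 1.23% and 0.877% left at day 0 and 2.24%, 2.13% and 2.75% at day 4. These rest on 9 to 21 counts a library at day 0, and its log2 differences of 1.30 ± 0.63 SE and 1.41 ± 0.48 SE did not pass (edgeR adjusted p = 0.776 and 0.150). Both Hist1h4j values passed when genes with low counts were kept in the fit (adjusted p = 0.0305 and 1.7e-05), its highest p over the alternatives being 0.9999 in clone 5F and 0.547 in clone 7E.

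**Figure D3:**
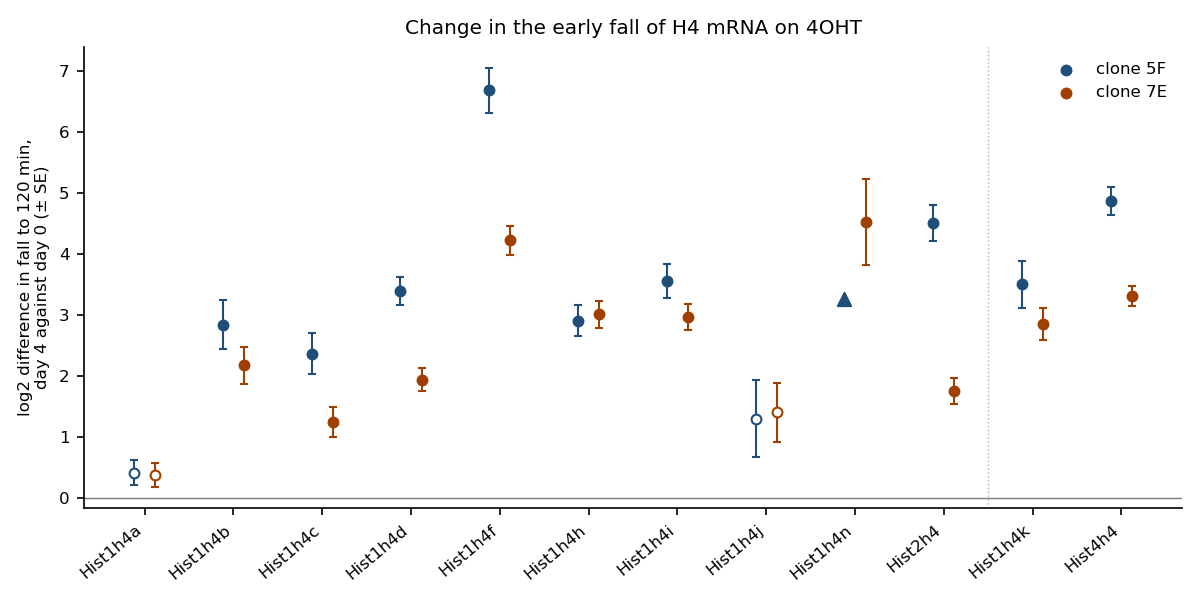
Log2 difference between day 4 and day 0 in the fall from mock to 120 min, with SE, for the 10 members and, right of the dotted line, Hist1h4k and Hist4h4. Filled circles passed edgeR's test and open circles did not, and the triangle is the lower bound for Hist1h4n in clone 5F, which had no count at day 0. The highest fitted value is 6.68 (Hist1h4f, clone 5F), and the values of Hist1h4a lie lowest at 0.41 and 0.38.

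At day 4 the members kept nearly the same order in both clones. Hist1h4n was highest (61.4% ± 12.8 in clone 5F and 68.0% ± 12.2 in clone 7E, SD, n = 3), followed by Hist2h4 (35.9% ± 5.73 and 33.4% ± 3.02), Hist1h4f (28.3% ± 5.01 and 28.2% ± 4.08) and Hist1h4i (21.7% ± 3.23 and 23.4% ± 3.00). From Hist2h4 down to the seventh rank, each member overlapped the next in at least 1 library. Hist1h4a, Hist1h4d and Hist1h4h filled ranks 5 to 7 in both clones. A gap followed, and Hist1h4c (5.86% ± 0.376 and 6.39% ± 0.883), Hist1h4b (5.31% ± 0.565 and 4.36% ± 0.674) and Hist1h4j (2.29% ± 0.930 and 2.37% ± 0.333) came last. The 2 members with the form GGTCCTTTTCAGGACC, Hist1h4b and Hist1h4j, ranked lowest at day 4 in each clone, although Hist1h4b overlapped Hist1h4c in clone 5F, while the 5 members with the first form ranged from 5.86% to 61.4% in clone 5F.

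The change from 120 to 360 min, tested the same way, had 1 of 10 members lower at day 4 in clone 5F, where 0.183% of all genes were. That member was Hist1h4f, with a log2 difference of −2.72 ± 0.56 SE (edgeR adjusted p = 0.00957), and at day 0 it had only 5 to 26 counts a library at 120 to 360 min. The call was lost without replicate 1 or replicate 3 (edgeR adjusted p = 0.498 and 0.468, the highest over the alternatives being 0.498). In clone 7E 2 of 10 members fell less at day 4 over this interval, where 2.12% of all genes did. Hist1h4d had a log2 difference of 1.54 ± 0.22 SE (edgeR adjusted p = 5.36e-06), and without each replicate in turn its highest p was 0.0067. Hist1h4h had 1.25 ± 0.30 SE (edgeR adjusted p = 0.0106), but its p rose to 0.0528 to 0.161 without any 1 replicate.

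A straight line of log counts on time is the form in which the study fits half-lives. Its slope rose (fell less steeply) at day 4 for 5 of 10 members in clone 5F, where 0.134% of all genes did. These were Hist1h4d, Hist1h4f, Hist1h4h, Hist1h4n and Hist2h4, and no call remained when any 1 replicate was left out or with limma. In clone 7E 5 of 10 rose as well (0.408% of all genes), with Hist1h4i in place of Hist2h4, and 1 to 3 remained without 1 replicate. The median change of slope was 0.63 log2 units per hour in clone 5F and 0.60 in clone 7E. The fitted half-life of the summed H4 mRNA was 51.8 min at day 0 and 88.3 min labelled day 4 in clone 5F (45.7 to 59.9 and 81.1 to 96.8 min at 1 SE of the slope). In clone 7E it was 54.3 min at day 0 and 96.3 min at day 4 (48.4 to 61.8 and 87.3 to 107 min). Hist1h4a went from 70.0 to 79.5 min in clone 5F, Hist1h4f from 50.6 to 98.1 min and Hist2h4 from 53.8 to 117 min. Without the 360 min libraries the fits of these genes in clone 5F went from 62.9 to 69.1 min, from 30.8 to 89.2 min and from 35.6 to 108 min. At day 0 the level fell steeply to 120 min and then slowly at few counts, a course that a straight line does not follow.

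The clones differed at day 0 for 3 of 10 members, all with more RNA left in clone 7E at 120 min, where 0.0805% of all genes had more. Hist2h4 differed by 2.65 ± 0.31 on the log2 scale (edgeR adjusted p = 5.06e-07), and this call held without each replicate in turn (highest p 0.00957). Hist1h4d differed by 1.51 ± 0.23 (edgeR adjusted p = 0.000192), which was lost without replicate 1 (adjusted p = 0.476, the highest over the alternatives). Hist1h4f differed by 2.45 ± 0.49 (edgeR adjusted p = 0.013), which was lost without any 1 replicate (adjusted p = 0.168 to 0.9999). The change between the days was in turn smaller in clone 7E for 2 of 10 members (0.0698% of all genes), by −2.75 ± 0.37 for Hist2h4 (edgeR adjusted p = 2.9e-05) and −1.45 ± 0.30 for Hist1h4d (edgeR adjusted p = 0.0258). Both comparisons use the same day 0 libraries. Without replicate 1, which leaves clone 5F with 1 library at day 0 and 120 min, neither of the 2 passed (edgeR adjusted p = 0.0839 for Hist2h4 and 0.9999 for Hist1h4d), and Hist1h4d did not without replicate 2 either (adjusted p = 0.558).

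Steady-state H4 mRNA also differed between the days. In clone 5F all 10 members were higher in the mock libraries labelled day 4, where 11.9% of all genes were higher (17209 tested). The sum rose from 17510, 20070 and 16990 to 30300, 30770 and 39360 normalized counts, and own spike-in scaling left the members' median at 0.76 as the share of all gene calls that were higher went from 52.5% to 29.0%. For each of the 10 members every library labelled day 4 was above every day 0 library, as for 17.8% of all genes. Hist2h4 had 1430, 1814 and 1423 normalized counts at day 0 and 4379, 4288 and 5546 labelled day 4, a log2 change of 1.60 ± 0.10 SE (edgeR adjusted p = 4.76e-11). The other 9 rose by 0.54 (Hist1h4a) to 1.21 (Hist1h4n), with a median over the 10 of 0.83. Hist1h4n did not pass without replicate 3 (log2 change 0.81, edgeR adjusted p = 0.0934).

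In clone 7E 7 of 10 members were higher at day 4, where 20.5% of all genes were, and Hist1h4b, Hist1h4j and Hist1h4n did not pass (log2 changes 0.08, 0.29 and 0.49). Without 1 replicate 5 to 8 passed: Hist1h4a was lost without replicate 1 or 3 (edgeR adjusted p = 0.206 and 0.0933), Hist1h4h without replicate 1 (0.104), and Hist1h4j was gained without replicate 2 (0.00506). The sum was 23640, 29810 and 25990 at day 0 and 40640, 34950 and 40220 at day 4, and the groups did not overlap for 5 of 10 members (23.1% of all genes). Hist2h4 again changed most, from 2442, 3049 and 2495 to 7177, 6362 and 7152 normalized counts (log2 change 1.37 ± 0.09 SE, edgeR adjusted p = 5.74e-11). The direction in clone 7E depends on the scaling. Spike-in RNA took 0.651% of counts in its day 4 mock libraries and 0.313% at day 0 (0.294% and 0.287% in clone 5F). When each library was scaled to its own spike-ins, the all-gene median shifted to −1.10, and 9 of 10 members passed as lower with only Hist2h4 higher. Relative to the median of all genes, the members' median was 0.46 higher under both scalings, and all 10 lay above that median. A change of scaling shifts all genes of a comparison by nearly the same amount. The equal value is therefore no check of the direction. The gene calls moved with the all-gene median, from 3530 higher and 3332 lower to 270 higher and 15132 lower. In bulk RNA, fewer cells with a transcript and less of it per cell cannot be told apart.

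Between the clones at day 0, 9 of 10 members were higher in clone 7E (18.1% of all genes), with a median log2 difference of 0.55 and only Hist1h4a (0.20, edgeR adjusted p = 0.0732) not passing. Without replicate 1 Hist1h4n and Hist1h4j were lost (edgeR adjusted p = 0.164 and 0.0543), and without replicate 3 Hist1h4n was (0.0982). With each library scaled to its own spike-ins the median of the members was 0.39, and 6 passed, as the share of gene calls that were higher went from 49.9% to 20.1%.

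**Figure D4:**
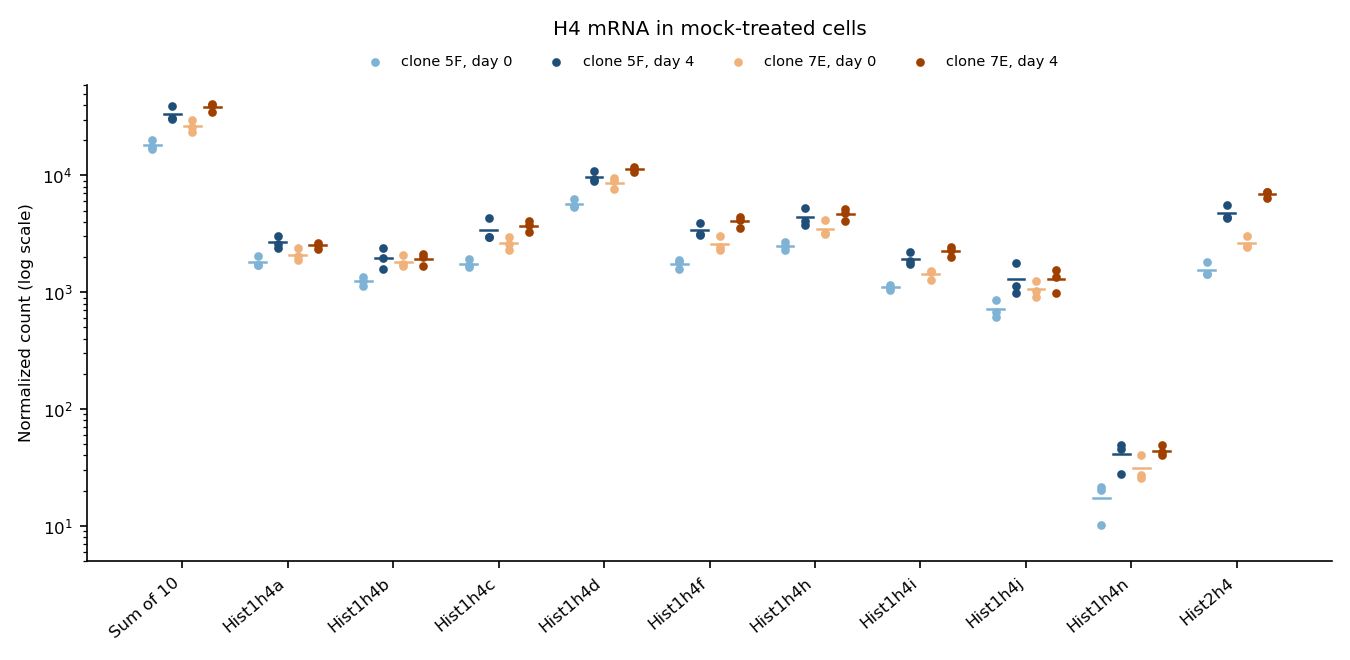
Normalized counts (log scale) of the sum and of each of the 10 members in the mock libraries, before any actinomycin D. Points are libraries (3 a group) and bars are means. In clone 5F every library labelled day 4 (dark blue) lies above every day 0 library (pale blue) for each member, with the widest gap in Hist2h4, 1423 to 1814 against 4288 to 5546.

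Other replication-dependent histones also had more RNA left at day 4, and no polyadenylated replacement histone passed. Of the other annotated H4 genes, Hist4h4 and Hist1h4k passed in both clones, with log2 differences in the fall to 120 min of 4.87 ± 0.22 SE and 3.51 ± 0.38 SE in clone 5F and 3.31 ± 0.17 SE and 2.85 ± 0.27 SE in clone 7E. Hist1h4m had no more than 1 count in any library and was not tested. Of 11 tested H3 genes 9 had more RNA left at day 4 in each clone, among them Hist1h3a (5.67 in clone 5F, 2.92 in clone 7E) and Hist1h3b (3.36 and 1.94). Of 30 tested H2A and H2B genes 24 did in clone 5F and 25 in clone 7E, including Hist1h2bb (5.74 and 3.69) and Hist2h2bb (4.05 and 2.56). The summed H3 mRNA left at 120 min rose from 0.646% to 8.99% in clone 5F and from 1.58% to 8.79% in clone 7E. None of 8 replacement histone genes passed in either clone (log2 differences −0.26 to 0.10 and −0.33 to 0.23). Of the 62 genes in all that had more RNA left at day 4 in clone 5F, 49 were replication-dependent histones (10 of them H4 and 6 H1 genes), as were 50 of 190 in clone 7E. In the mock libraries 9 of the 11 H3 genes and 29 of the 30 H2A and H2B genes were higher labelled day 4 in clone 5F, and 5 and 17 in clone 7E. Of the replacement histones 2 were higher and 1 lower in clone 5F, and 1 higher and 4 lower in clone 7E. These mock counts of clone 7E depend on the scaling, since own spike-ins shifted the all-gene median to −1.10.

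Genes that make, process or degrade histone mRNA seldom passed in their own decay. Over the fall to 120 min, none of 11 genes of histone pre-mRNA transcription and processing, 14 of histone mRNA decay, 17 of S phase and 10 H4 chaperones and modifiers passed in clone 5F. In clone 7E only Cpsf3, the nuclease that cuts histone pre-mRNA (log2 difference −0.23), and Rbbp7, which binds H4 (−0.25), passed, and neither did with each library scaled to its own spike-ins. In the mock libraries of clone 5F the S phase list had 7 of 17 genes lower and none higher, where 10.8% of all genes were lower and 11.9% higher, including Ccne1, the G1/S cyclin E1 (log2 change −0.17), which was also lower in clone 7E (−0.41). Slbp, the stem-loop binding protein, was lower in both (−0.21 and −0.17), and so was Ttc37, the scaffold of the Ski complex (−0.18 and −0.27). Upf1, a helicase needed for histone mRNA decay, was higher in both (0.36 and 0.35, the latter turning to −0.75 with own spike-ins). Wdr61, a further Ski complex subunit, was lower in clone 5F (−0.38), as were Asf1b, an H3-H4 chaperone (−0.33), and Hat1, which acetylates new H4 (−0.17). Of these lists 3 of 11, 4 of 14, 7 of 17 and 2 of 10 genes were lower in clone 5F and 0, 3, 0 and 0 higher. In clone 7E 2, 3, 9 and 4 were lower and 1, 5, 1 and 1 higher, where 19.4% of all genes were lower and 20.5% higher. The mock calls of clone 7E depend on the scaling, since own spike-ins shifted the all-gene median to −1.10. Whether the S phase genes and the H4 mRNA levels bear on each other was not tested.

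CRAC, which crosslinks a tagged protein to RNA and sequences the bound fragments, was deposited as the relative binding of each mRNA to SKIV2L, XRN1 (the cytoplasmic 5′ to 3′ exonuclease) and MTR4 (the nuclear exosome helicase). The 3 shares sum to 1 for each of 7240 mRNAs, and they come from pooled libraries, so they have no replicate error and were not tested. The SKIV2L share of all 10 members was above the median of all mRNAs (0.267), with a median of 0.379. It was highest for Hist1h4f (0.638, above 97.4% of mRNAs), followed by Hist1h4h (0.536), Hist1h4c (0.524) and Hist2h4 (0.508). SKIV2L held the largest share in these 4 and in Hist1h4b (0.387). XRN1 held it in Hist1h4a (0.407) and Hist1h4d (0.468), and MTR4 in Hist1h4i (0.449), Hist1h4j (0.373) and Hist1h4n (0.655). The median SKIV2L share was 0.654 over 9 H3 genes and 0.542 over 23 H2A and H2B genes, both above that of the H4 members.

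**Figure D5:**
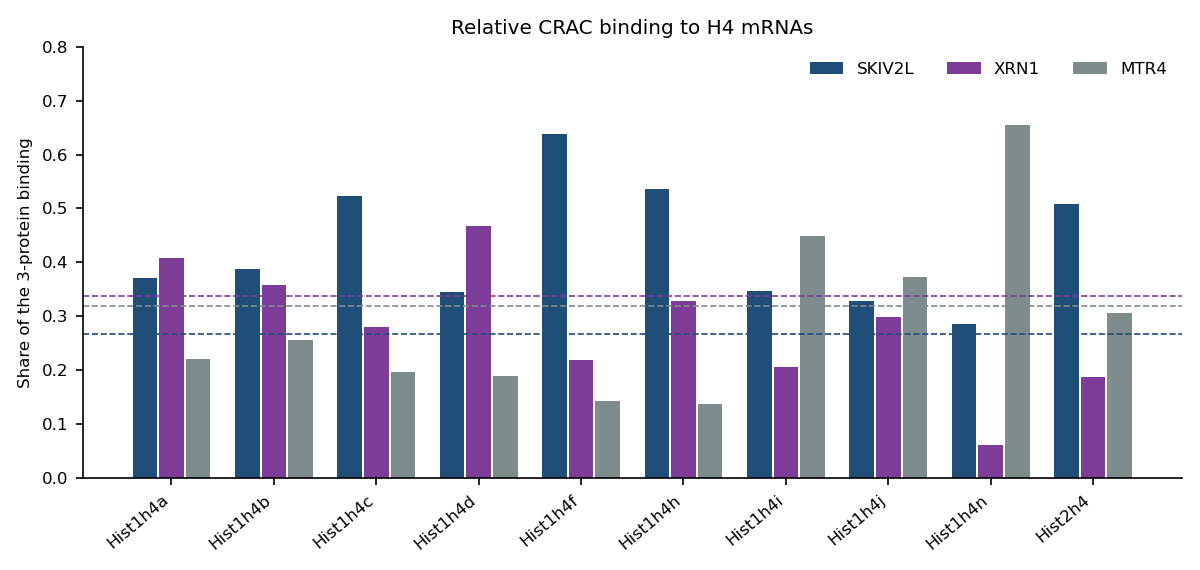
Relative CRAC binding of each H4 mRNA to SKIV2L, XRN1 and MTR4, as shares that sum to 1, with dashed lines at the median over all 7240 mRNAs in the colour of each protein. Bars are single values of pooled libraries. All 10 SKIV2L bars lie above their line (0.267), and that of Hist1h4f is the highest at 0.638.

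Binding of AVEN, scaled to the same total, had a median of 0.443 over the members against 0.296 over all mRNAs, and was highest for Hist1h4c (0.905, above 99.0% of mRNAs). Across the 10 members the SKIV2L share did not rank with the RNA left at 120 min (Spearman's rho 0.13 and −0.03 in clone 5F at day 0 and labelled day 4, −0.14 and 0.07 in clone 7E). The XRN1 share ranked against the RNA left at day 4 (rho −0.64 and −0.68) and not in the same way at day 0 (0.47 and −0.01). Hist1h4n, which gave few counts, had the lowest SKIV2L share (0.285) and the lowest XRN1 share (0.060) of the members. It also had the most RNA left at day 4 (61.4% and 68.0%). These rho values depend on its place, and none was computed without it. The rho values set binding in the tagged lines against RNA left in clones 5F and 7E, which are other lines. These 10 points share libraries and near-identical sequence and are given as a description only.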

How the data were processed

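RNA-seq of 47 libraries of 2 clones was analysed. The deposited table holds raw counts per gene, which the authors made with STAR (uniquely mapping reads, mm10/GRCm38 with spike-ins, GENCODE annotation, no strand). It includes 92 ERCC spike-in RNAs, which were kept out of gene tests. Symbols matched 53274 of 53380 genes. Counts were scaled as the study describes, by DESeq2 size factors within each time point times 1 spike-in factor per time point (1, 0.649, 0.531 and 0.438), from 34 spike-ins with a mean above 50 counts. edgeR's quasi-likelihood test (version 4.0.16, R 4.3.3) with these factors as offsets, filterByExpr and Benjamini-Hochberg adjustment over all genes tested (threshold 0.05) gave the calls. SEs were derived from its F statistics. Mock comparisons used the 12 mock libraries, slopes those of 1 clone, and the rest all 47. Half-lives came from ln(normalized count + 1) on time, with no test. Tests were checked on simulated counts with a fixed spread and with changes set only in genes of high mean count. The check therefore says little on values that rest on few counts. The study calls its replicates technical, so p-values measure only the spread between these samples. No 2 replicate libraries agreed within sampling noise (lowest chi-square per gene 2.59 over 46 pairs).

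The CRAC table, per the file headers and the study's methods, holds relative binding as a ratio made by the authors from pooled CRAC counts, RPKM values deposited by the authors for the tagged lines, and relative binding corrected for RPKM (a score made by the authors). The authors' half-lives were not used.

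All 10 members are named, with Skiv2l and Aven. From each fixed list at most 4 genes are named, those called with the highest mean count, or 2 where none was called. Members, lists and tests were chosen with earlier results of these data known. Alternatives were own spike-in scaling, TMM (edgeR) without spike-ins, DESeq2 1.42.0, limma 3.58.1 on log2(normalized count + 1), keeping low-count genes, the replicate number as a block, leaving out each replicate or the 360 min libraries, fitting only the groups compared, other pseudocounts and RPKM correction.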

Additional observations from a re-analysis of the deposited data

Results flagged for a closer look

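The test of the difference between clones flagged 2 members. For Hist2h4 the change in the fall to 120 min on 4OHT was smaller in clone 7E than in clone 5F by −2.75 on the log2 scale, the day 0 libraries holding 1.29% and 1.87% in clone 5F and 9.42% to 10.4% in clone 7E. For Hist1h4d the same difference was −1.45, with 1.31% and 2.04% against 4.29% to 5.30% at day 0. In both genes the libraries of the 2 clones overlapped at day 4. These are the 2 members whose gene models run farthest past the stem-loop, by 1257 and 770 nt, and the part of that in the difference was not tested.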

How the results depend on the processing

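The number of members with more RNA left at 120 min on day 4 was 6 to 9 under all alternatives in clone 5F and 7 to 9 in clone 7E. Slope calls were fewer with limma (0 and 1 in clones 5F and 7E), with DESeq2 in clone 5F (3), and without 1 replicate (0 in each case and 1 to 3). The smaller change in clone 7E was called for 1 member with own spike-ins, 4 without the filter and 0 to 2 without 1 replicate. The day 0 difference between clones was called for 1 to 2 without 1 replicate. From 120 to 360 min, clone 5F had 3, 2 and 3 members lower with DESeq2, limma and no filter (1 higher with no filter) and 0 to 1 without 1 replicate, and clone 7E had 1 higher without any 1 replicate. In the mock libraries of clone 7E own spike-ins gave 1 higher and 9 lower. Own spike-ins moved the share of all gene calls that were higher from 68.6% to 84.2% and from 45.5% to 72.4% for the slopes of clones 5F and 7E, and from 46.9% to 31.2% and from 61.0% to 37.1% for the change from 120 to 360 min. The causes were not tested.

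Signs also turned for single genes. With own spike-ins the mock change in clone 7E was −0.84 for Hist1h4a, −1.02 for Hist1h4b, −0.61 for Hist1h4c, −0.72 for Hist1h4d, −0.46 for Hist1h4f, −0.68 for Hist1h4h, −0.46 for Hist1h4i, −0.81 for Hist1h4j, −0.60 for Hist1h4n, −0.46 for Hist4h4, −0.65 for Hist1h4k, −0.75 for Upf1 and −0.55 for H3f3b. The clone difference became 0.35 for Hist1h4a, and the day 0 difference −0.014 for Hist1h4h. With TMM the fall of Hist1h4n at day 4 became 0.12 and 0.25. With limma Hist1h4n had 0.20 for the clone difference, −0.089 for the day 0 difference and −1.06 from 120 to 360 min in clone 7E. Leaving out 1 replicate turned values that had not passed. The clone difference ranged from −0.25 to 0.17 for Hist1h4a, −0.13 to 0.40 for Hist1h4h and −0.047 to 0.30 for Hist1h4j, and the day 0 difference from −0.17 to 0.29 for Hist1h4h and −0.40 to 0.21 for Hist1h4j. From 120 to 360 min the ranges were −0.61 to 0.12 for Hist1h4j and −0.077 to 0.68 for Hist1h4d in clone 5F, and −0.19 to 0.048 for Hist1h4c, −0.60 to 0.45 for Hist1h4b, −0.040 to 0.36 for Hist2h4, −0.62 to 1.40 for Hist1h4j and −0.033 to 2.85 for Hist1h4n in clone 7E. The mock change ranged from −0.031 to 0.27 for Hist1h4b in clone 7E and −0.062 to 0.038 for Skiv2l in clone 5F. Of the members' 40 half-lives 38 moved beyond their error without the 360 min libraries, and 6 of 240 values under the other alternatives. Of 30 CRAC shares 6 moved by over 0.05 with RPKM correction.

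Over all pairs of groups, same-numbered libraries did not deviate together (correlations −0.75 to 0.81 over 345 pairs, median −0.03). For libraries of different number the range was −0.76 to 0.83 over 690 pairs (median 0.02). These pairs span clones and days, and pairing within a clone and day was not examined by itself. The replicate block gave 4 slope calls in each clone in place of 5 and left the other counts of called members as they were. Depth limits the day 0 values under actinomycin D: in clone 5F only Hist1h4a and Hist1h4d reached 100 counts in any library, and in clone 7E Hist1h4b, Hist1h4f, Hist1h4i, Hist1h4j and Hist1h4n never did, and intervals and floors cover counting error only.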

Other observations

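Over the 47 libraries, the pattern of 9874 genes with a mean normalized count of at least 100 was compared with that of the summed H4 mRNA (Pearson's r of log2 values, a description only, since all libraries share the decay course). The 10 non-members most alike were all replication-dependent histone genes, led by Hist1h3i (0.993), Hist4h4 (0.991), Hist1h4k (0.990) and the linker histone genes Hist1h1c (0.989) and Hist1h1b (0.989). The antisense transcript 4930558J22Rik, which overlaps Hist1h4b, had 118 counts in all in the mock libraries of clone 5F at day 0, against 4010 for Hist1h4b.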
